A study of Oryza sativa with 4 samples.

Results

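The Bowman-Birk inhibitor cluster on rice chromosome 1 was examined in 2 RNA libraries labelled as panicle. The cluster was taken as 6 loci of the 55986 in the authors' expression table: LOC_Os01g03310, LOC_Os01g03320, LOC_Os01g03340, LOC_Os01g03360, LOC_Os01g03380 and LOC_Os01g03390. They were chosen by locus identifier as tandem genes of Bowman-Birk type, and because neighbours among them differed in opposite ways between the libraries. That difference is therefore given as a description. The table carries no gene descriptions, so the assignment of these loci to the family rests on general knowledge and was not checked here.

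Bowman-Birk inhibitors are small, cysteine-rich plant proteins that block serine proteases such as trypsin and chymotrypsin. They are best known from the seeds of legumes and cereals, where they are thought to protect stored protein and to deter feeding insects. In rice, genes of the family lie side by side on chromosome 1, and some of them respond to wounding and to jasmonate, a wound hormone.

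The study asked which genes are regulated by OsGRF6, a growth-regulating factor; this family of plant transcription factors is repressed by the microRNA miR396. The MIM396 RNA library is labelled as panicle, the inflorescence of rice, of plants that carry p35S:MIM396, a target-mimic transgene that sequesters miR396 and is driven by the constitutive 35S promoter. The wild-type RNA library is labelled as panicle of Yutai B. The labels place both at the development of secondary branches. For binding, an OsGRF6-GFP ChIP library (anti-GFP antibody) and a ChIP input were made from callus, which is tissue grown in culture without differentiation, of p35S:GRF6-GFP lines. Each of the 4 groups held 1 library. The labels give the cultivar of the wild type only, and give no number of panicles or plants and no age in days. Since a genotype had 1 library, values carry no replicate error, genotypes were not tested against each other, and the differences below are between 2 libraries. The 95% intervals given with ratios and shares reflect counting error alone.

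The wild-type library went against its tissue label. Of 12 listed leaf photosynthesis loci, 11 were found in the table. They had 0.134 to 11.99 FPKM in the MIM396 library and 903.7 to 17544 FPKM in the wild-type library, where FPKM by name means fragments per kilobase, scaled for depth. The sources state neither the length nor the depth the authors used, and their FPKM summed to 506480 in MIM396 and 849095 in wild type, so the libraries were not brought to equal totals. Their sum was 37.7 FPKM in MIM396 and 72820 FPKM in wild type. All 11 were lower in MIM396 and none was at 0 in either library. Of 16 panicle and meristem loci, 14 reached 1 FPKM in the MIM396 library and 4 in the wild-type library, and they summed to 1114 FPKM in MIM396 and 186 FPKM in wild type. In wild type 8 of these 16 had no read, and in MIM396 none did. By the size rule given below, 9 were higher in MIM396, none was lower, 2 were neither and 5 had a mean under 1 FPKM. The 2 that were neither held most of the wild-type sum. They had 110.8 and 68.8 FPKM in wild type and 94.0 and 97.9 FPKM in MIM396. The most abundant locus of this list held 631 FPKM of the MIM396 sum. These lists were made from general knowledge of locus identities. The libraries held 13125592 reads in MIM396 and 16337526 in wild type, as recovered from the scaled counts. Genotype, tissue makeup and, where it differed, cultivar cannot be told apart in these libraries. In bulk tissue, fewer cells of a type and less RNA per cell cannot be told apart either.

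The cluster spanned 28276 bp of chromosome 1 (1338228 to 1366503, in the coordinates of the authors' table, whose build the sources do not state). Within this span the table lists 9 loci, so 3 further loci lie among the 6: LOC_Os01g03330, LOC_Os01g03350 and LOC_Os01g03370. No interval of a cluster locus overlapped another locus. The gaps between successive loci of the span ran from 1146 to 2520 bp. Exon and UTR structure was not analysed here.

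The cluster split along the chromosome. The first 2 loci were abundant in the wild-type library and scarce in MIM396, the next 2 were abundant in MIM396 and scarce in wild type, and of the last pair 1 had no read and 1 was low in both libraries. A locus was counted where log2 of FPKM + 1 differed by 1 or more and the mean of both libraries reached 1 FPKM. By this rule, 2 of the 6 loci were higher in MIM396, 2 were lower, 1 was neither and 1 lay under the floor. Of the 19456 loci whose mean reached 1 FPKM, 23.1% were higher and 27.3% lower, together 50.4%, so passing that limit was common in these libraries. The same 4 cluster loci were also past a 16-fold limit (a log2 ratio of 4 in size), which 6.87% of the 19456 loci passed (1.87% higher and 5.01% lower). Nothing is read from these counts, since the members were chosen on this contrast.

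**Figure D1:**
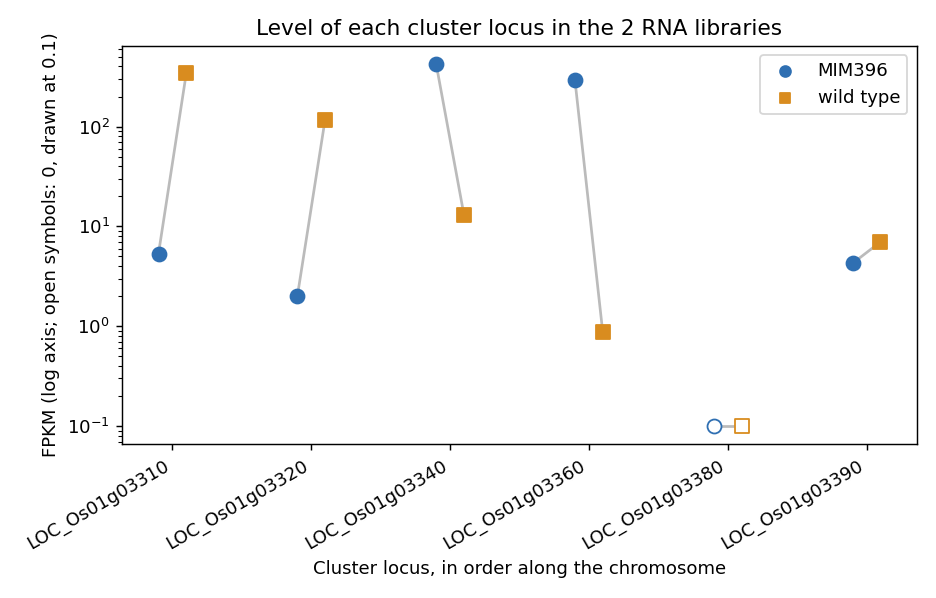
FPKM of the 6 cluster loci (log axis) in the MIM396 library (blue circles) and the wild-type library (orange squares), 1 library each, with a grey line joining the values of a locus and open symbols for 0. The first 2 loci stand at 5.35 and 1.99 FPKM in MIM396 and at 340.9 and 117 FPKM in wild type, while LOC_Os01g03340 and LOC_Os01g03360 stand at 423 and 289 FPKM in MIM396 and at 13.1 and 0.869 FPKM in wild type.

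LOC_Os01g03310 (1338228 to 1339139) had 5.35 FPKM in the MIM396 library and 340.9 FPKM in the wild-type library, from 73 and 3763 reads. Scaled reads were 64.6-fold lower in MIM396 (51.2 to 82.5), and the log2 ratio of FPKM + 1 was -5.75. With the libraries brought to equal totals, it was 41.4-fold lower, outside that interval, and the log2 ratio was -5.19. By FPKM it ranked 12109 of all loci in MIM396 and 271 in wild type. It was thus among the abundant transcripts of the wild-type library and an ordinary low one in MIM396.

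LOC_Os01g03320 (1341318 to 1342277) starts 2178 bp beyond the end of LOC_Os01g03310 and showed the same direction. It had 1.99 FPKM in MIM396 and 117 FPKM in wild type, from 29 and 1380 reads. Scaled reads were 59.6-fold lower in MIM396 (41.3 to 89.3), with a log2 ratio of -5.31, and 38.2-fold lower at equal totals, outside that interval. Its rank was 15888 in MIM396 and 943 in wild type. The pair kept nearly 1 proportion between them: LOC_Os01g03310 stood 2.68-fold above LOC_Os01g03320 in FPKM in MIM396 and 2.90-fold above it in wild type. The ratio of their read ratios was 0.923 (0.590 to 1.48), an interval that holds 1.

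LOC_Os01g03340 (1347566 to 1348786) went the other way. It had 423 FPKM in MIM396 and 13.1 FPKM in wild type, from 8212 and 205 reads. Scaled reads were 32.0-fold higher in MIM396 (27.8 to 36.9), with a log2 ratio of 4.91. At equal totals it was 49.9-fold higher, outside that interval, and the log2 ratio was 5.55. At rank 106 it was the most abundant cluster locus of the MIM396 library, and it ranked 8308 in wild type.

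LOC_Os01g03360 (1353628 to 1354802) had the largest difference of the 6. It had 289 FPKM in MIM396 and 0.869 FPKM in wild type, from 5370 and 13 reads. Scaled reads were 329.8-fold higher in MIM396 (192.7 to 619.9), with a log2 ratio of 7.28, and 514-fold higher at equal totals. Its rank was 184 in MIM396 and 18436 in wild type. The 2 loci did not keep 1 proportion: LOC_Os01g03340 stood 1.46-fold above LOC_Os01g03360 in FPKM in MIM396 and 15.1-fold above it in wild type, and the ratio of their read ratios was 0.0970 (0.0507 to 0.170).

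The last 2 loci took little part. LOC_Os01g03380 (1363515 to 1364303) had 0 reads of 13125592 in MIM396 and 0 of 16337526 in wild type, which allows up to 3 reads in each. No fold is given for it. LOC_Os01g03390 (1365507 to 1366503) had 4.27 FPKM in MIM396 and 6.99 FPKM in wild type, from 65 and 86 reads. Its scaled reads were 1.66-fold lower in MIM396 (1.19 to 2.32), with a log2 ratio of -0.60, and this depended on the scaling: with the libraries brought to equal totals the log2 ratio was -0.06.

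**Figure D2:**
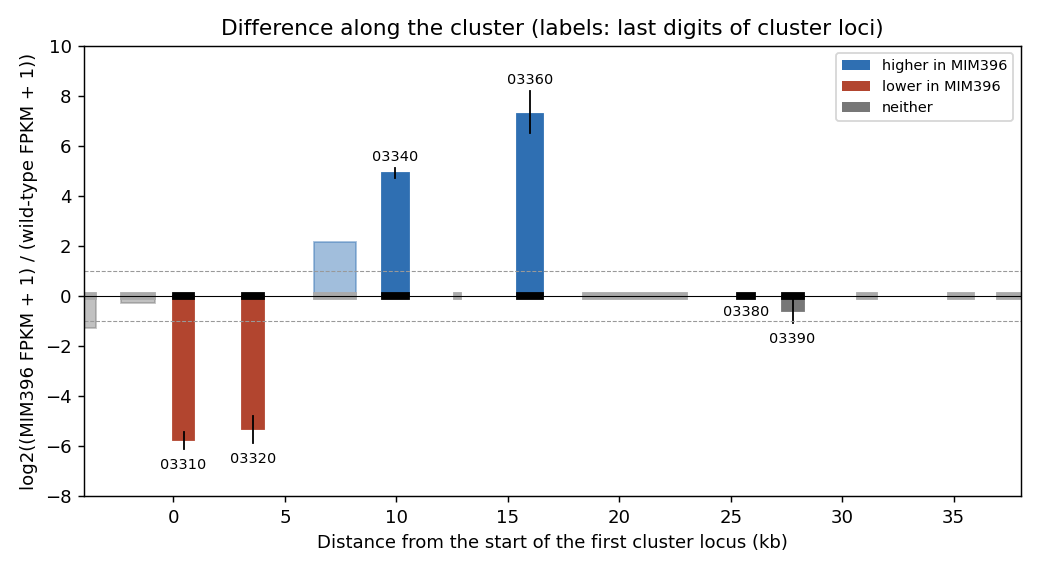
The log2 ratio of FPKM + 1, MIM396 over wild type, of each locus against its distance in kb from the start of LOC_Os01g03310. Strong bars are cluster loci and pale bars other loci, and black blocks on the zero line mark the intervals of cluster loci and grey blocks those of others. Vertical lines are 95% counting intervals of the scaled-read ratio, moved onto the bar. They are not intervals of the plotted ratio, which adds 1 to FPKM. Dashed lines mark a log2 ratio of 1 in each direction. The sign turns between LOC_Os01g03320 (-5.31) and LOC_Os01g03340 (4.91), and no bar is seen for LOC_Os01g03380, which had no reads.

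In the authors' deposited table, the FDR was 0.000592 for LOC_Os01g03310, 0.000607 for LOC_Os01g03320, 0.00368 for LOC_Os01g03340 and 8.1e-06 for LOC_Os01g03360. The same table gave 0.684 for LOC_Os01g03390 and 1 for LOC_Os01g03380. The authors' deposited table put 4.95% of all 55986 loci under 0.05, and 28731 of these loci had no reads in either library. The sources do not state which test gave these FDR values from 1 library per genotype.

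The levels within a library can be set side by side without any scaling between libraries. In the MIM396 library the order by FPKM was LOC_Os01g03340, LOC_Os01g03360, LOC_Os01g03310, LOC_Os01g03390, LOC_Os01g03320 and LOC_Os01g03380. In the wild-type library the order was LOC_Os01g03310, LOC_Os01g03320, LOC_Os01g03340, LOC_Os01g03390, LOC_Os01g03360 and LOC_Os01g03380. Read counts of LOC_Os01g03310 (73) and LOC_Os01g03390 (65), neighbours in the MIM396 order, were close to each other.

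The makeup of the cluster signal was nearly exchanged between the libraries. LOC_Os01g03340 and LOC_Os01g03360 together held 98.8% of the cluster reads in MIM396 (98.6 to 99.0%, Clopper-Pearson) and 4.0% in wild type (3.50 to 4.56%). LOC_Os01g03310 and LOC_Os01g03320 together held 0.742% in MIM396 (0.605 to 0.900%) and 94.4% in wild type (93.8 to 95.01%). In FPKM the shares of LOC_Os01g03310 and LOC_Os01g03320 together were 1.01% in MIM396 and 95.6% in wild type. FPKM rests on the same reads, so these shares restate the exchange and are no separate support for it.

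**Figure D3:**
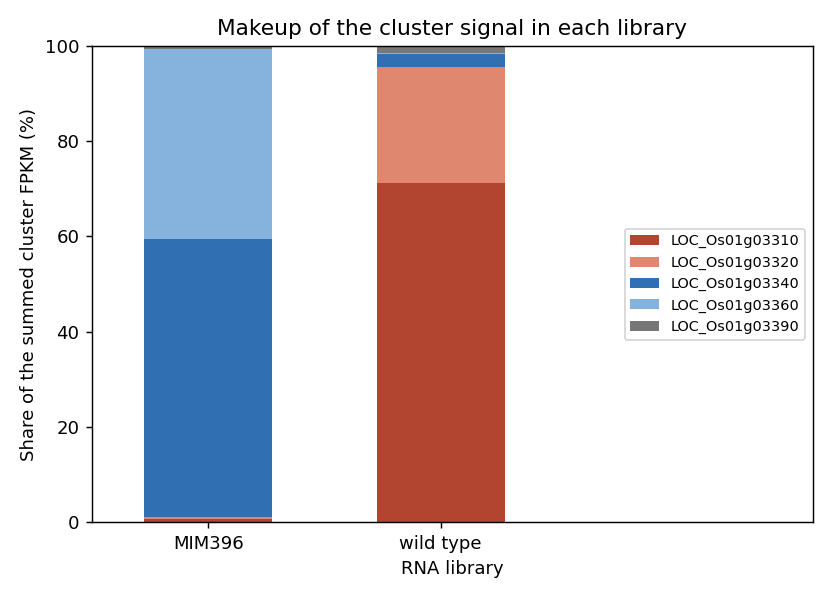
Share of the summed FPKM of the cluster, in percent, held by each locus in the MIM396 library (left bar) and the wild-type library (right bar); LOC_Os01g03380, at 0, is not drawn. The blue parts, LOC_Os01g03340 and LOC_Os01g03360, make up 98.4% in MIM396 and 2.92% in wild type.

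LOC_Os01g03340 had 112-fold more reads than LOC_Os01g03310 in MIM396 and 0.0545-fold as many in wild type. This read ratio was 2065-fold higher in MIM396 (1566 to 2737), and against LOC_Os01g03320 it was 1906-fold higher (1278 to 2919). For LOC_Os01g03360 the ratio to LOC_Os01g03310 was 21293-fold higher (11606 to 41503) and that to LOC_Os01g03320 was 19657-fold higher (9838 to 40606). A ratio within a library is the same under every scaling. These values restate the opposite differences on which the loci were chosen and are given as a description only.

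Summed over the 6 loci, the cluster had 13749 reads in MIM396 and 5447 in wild type, and 724 and 479 FPKM. The sum of scaled reads was 2.02-fold higher in MIM396 (1.95 to 2.08), a log2 ratio of 1.01 that depended on the scaling, with 1.65 at equal totals. The summed difference was thus far smaller than those of the 4 loci that make it up, which were 32.0-fold and 329.8-fold higher and 64.6-fold and 59.6-fold lower. Tandem copies of a gene can share reads where their sequences are alike, and the sources do not state how the authors placed such reads, so the division of reads among the 6 loci is uncertain while the sum is less so. Protein and promoter sequences of the cluster were not used here, and the identity between copies was not computed.

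Of the 3 other loci inside the span, LOC_Os01g03330 lies between the lower and the higher cluster loci. It had 4.68 FPKM in MIM396 and 0.278 FPKM in wild type, from 147 and 7 reads, and was higher in MIM396 (16.8-fold in scaled reads, 7.94 to 42.4). The authors' deposited table gave it an FDR of 0.0288. Its direction was that of LOC_Os01g03340, whose interval starts 1146 bp beyond its end and which had 423 FPKM in MIM396. LOC_Os01g03350 and LOC_Os01g03370 had no reads in either library.

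Of 22 other loci within 50 kb of the cluster, 13 had no reads in either library, and 4 reached a mean of 1 FPKM. Of these 4, 3 were higher in MIM396, none was lower and 1 was neither, beside 23.1% higher and 27.3% lower over the 19456 loci. LOC_Os01g03490 (1404154 to 1407187) had 99.6 FPKM in MIM396 and 1.10 FPKM in wild type, from 4178 and 37 reads, and was 90.2-fold higher in scaled reads (65.3 to 128.2). LOC_Os01g03250 passed the limit on 2 reads in MIM396 and 0 in wild type. On the side of LOC_Os01g03310, the next locus, LOC_Os01g03300, had 0 reads in MIM396 and 3 in wild type, and LOC_Os01g03290 had 0 in MIM396 and 15 in wild type. The abundance of the first 2 cluster loci in wild type was thus not seen at the loci just outside them.

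Opposite differences of neighbours were not rare in the genome. Of 10667 pairs of adjacent loci that both reached a mean of 1 FPKM, 1123 (10.5%) were higher on one side and lower on the other. Of the 363 loci at least 16-fold higher in MIM396, 31 (8.54%) had a locus at least 16-fold lower within 10 kb. LOC_Os01g03340 was one of 4 of these 31 with 2 such loci within that distance. The cluster was chosen for such differences, so its place among them is a description only. The share of all loci that have a locus at least 16-fold lower within 10 kb was not counted. Nor was the share of opposite pairs among loci that are not adjacent, so 10.5% is not shown to be high or low.

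**Figure D4:**
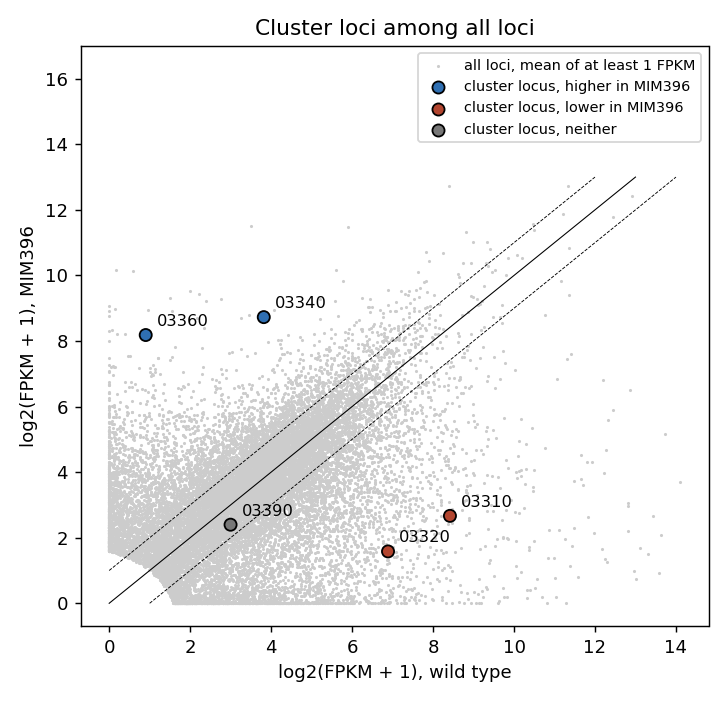
Level of each locus whose mean reached 1 FPKM, as log2(FPKM + 1), in MIM396 (vertical axis) against wild type (horizontal axis); grey points are all 19456 loci, large points the 5 cluster loci above the floor, the solid line equal levels and the dashed lines a log2 ratio of 1 in each direction. LOC_Os01g03310 and LOC_Os01g03320 lie far below the lines, LOC_Os01g03340 and LOC_Os01g03360 far above, and LOC_Os01g03390 between them.

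The loci most like a cluster locus were sought by distance in log2(FPKM + 1) over the 2 libraries. Nearest to LOC_Os01g03360 were LOC_Os01g52680 (298 FPKM in MIM396 and 0.319 in wild type, distance 0.51), LOC_Os06g27590 (distance 0.72) and LOC_Os04g43670 (distance 0.74). Nearest to LOC_Os01g03310 were LOC_Os09g26810 (4.84 FPKM in MIM396 and 347 in wild type, distance 0.12), LOC_Os12g38170 (distance 0.20) and LOC_Os06g47970 (distance 0.22). The table pairs none of these loci with a name, and 2 libraries are too few for a likeness in pattern to say more than that the levels are close.

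The shares over the 19456 loci, 23.1% higher and 27.3% lower, are the background for the lists of related genes that follow. They cover loci whose mean reached 1 FPKM, so they compare only with the listed loci above that floor. Above it were 9 of the 11 jasmonate loci, 3 of the 10 pathogenesis-related loci and 11 of the 16 panicle and meristem loci. The 2 other Bowman-Birk type loci and the 11 leaf photosynthesis loci were all above it. Bowman-Birk type loci outside the cluster were listed from general knowledge, and of 2 such loci 1 was higher, with 182 FPKM in MIM396 and 69.6 FPKM in wild type, and 1 was lower, with 5.58 FPKM in MIM396 and 18.0 FPKM in wild type. Of 11 loci listed for jasmonate synthesis, which makes the wound hormone, none was higher, 5 were lower, 4 were neither and 2 lay under the floor. The 4 that were neither had log2 ratios from -0.72 to 0.97. The summed level of the 11 loci was 84.3 FPKM in MIM396 and 340.0 FPKM in wild type. Of the lower loci, 2 held 124.2 and 93.6 FPKM of the wild-type sum. The median log2 ratio of all 11 was -0.72. For the 9 of them above the floor, which is the set comparable with the 19456 loci, the median was -1.60. With the libraries brought to equal totals, 1 of the 11 was higher, 5 were lower and the median of all 11 was -0.12. The lower of the 2 other Bowman-Birk type loci was then no longer past the limit. Of 10 loci listed for pathogenesis-related proteins, which accumulate in infected or stressed tissue, none was higher, 2 were lower, 1 was neither and 7 lay under the floor. Their summed level was 6.32 FPKM in MIM396 and 98.6 FPKM in wild type, where 1 locus held 79.6 FPKM. The median level of the 10 was 0.087 FPKM in MIM396 and 0.223 FPKM in wild type. The median log2 ratio of the 19456 loci was -0.00, with quartiles of -1.16 and 0.91. LOC_Os01g03310 and LOC_Os01g03320 were lower in MIM396, as was each of the 11 leaf photosynthesis loci. So were 5 of the 11 jasmonate loci, 2 of the 10 pathogenesis-related loci and 1 of the 2 other Bowman-Birk type loci. LOC_Os01g03340 and LOC_Os01g03360 were higher, as were 9 of the 16 panicle and meristem loci. The cluster loci were chosen on this contrast, so nothing is read from a shared direction. The part of tissue makeup in the cluster's differences was not tested.

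The ChIP library addresses whether OsGRF6-GFP bound at the cluster in callus. Of the 142 peaks in the authors' list, 32 lay on chromosome 1, and none was paired with a cluster locus or with 1 of the 22 neighbours. The nearest listed peak, peak 2 (1676592 to 1677626), lay 310 kb beyond LOC_Os01g03390. The list holds only peaks that the authors placed at genes, and came from 1 ChIP library of another tissue, so it does not show that the cluster was unbound in panicles.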

How the data were processed

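RNA was sequenced from TruSeq libraries labelled as MIM396 and wild-type panicles, per the labels' protocols. FastQC and Bowtie are named in the submitters' processing notes, without versions. The sources do not state the genome build, the counting tool or the treatment of reads with several matches. The authors deposited FPKM per locus and a scaled read signal for each library, called a count in the file header. Most signal values were whole multiples of 0.844 in MIM396 and 1.06 in wild type (98.5% and 98.2% of positive values within 0.01 of a whole number), so reads were recovered by division, and totals may be off by the rounding of large values. The authors' deposited p-values (an FDR) were quoted only as theirs. The peak positions are the authors', with identifiers that begin with MACS.

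The log2 ratio is that of FPKM + 1, MIM396 over wild type, and the added 1 makes differences of low loci smaller than they are. Ratios of scaled reads carry exact conditional binomial (Clopper-Pearson) intervals, which treat reads as independent although the libraries carry no molecular identifiers. No count test was run, since 1 library per group leaves no residual degrees of freedom. The size rule, intervals and TMM scaling were run on simulated counts that held counting error alone and few changed loci, higher and lower in equal number. In the libraries here 50.4% of loci above the floor passed the limit. The simulation therefore does not show how well these methods perform on data like these. The members, the lists and the limits were chosen with earlier results of these data known, and the 16-fold limit and the count of opposite neighbours after the values were seen. Named loci are the 6 members, loci of their run of identifiers, neighbours past the limit with a mean of at least 5 FPKM, and the 3 loci nearest in level to the highest and the lowest member. LOC_Os01g03250 and LOC_Os01g03290 were named after their values were seen. The RefSeq gene table (ASM3414082v1) matched 0 of the 6 members, so the planned protein comparison was left out. Analyses used Python 3.11.15, pandas 2.3.3, numpy 2.4.6 and scipy 1.17.1.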

Additional observations from a re-analysis of the deposited data

How the results depend on the processing

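The counts of 2 members higher and 2 members lower in MIM396 held under all 9 alternatives run for them: equal totals, TMM factors, totals without the top 50 loci of either library, pseudocounts of 0.1 and 0.5 FPKM, scaled reads in place of FPKM, no filter, and limits of 2 and, added after seeing the data, 4 on the log2 scale. These members were chosen on this contrast and lay far past the limit of 1, so the counts could hardly have changed. Scaling moved the median of all loci by 0.60 (log2) at equal totals and 0.37 without the top 50 loci, and the log2 ratio of the summed cluster was then 1.65 and 1.41. With TMM factors the median of all loci was 0.006, and the log2 ratio was 1.02 for the summed cluster and -0.60 for LOC_Os01g03390. Of the single loci, LOC_Os01g03310 ranged from -5.99 to -5.19, LOC_Os01g03320 from -5.84 to -4.85, LOC_Os01g03340 from 4.91 to 5.55, LOC_Os01g03360 from 7.28 to 8.26 and LOC_Os01g03390 from -0.72 to -0.06. Of the neighbours, 1 was higher within 20 kb, and within 100 kb 4 were higher and 1 was lower, as windows hold different loci. No paired analysis was possible because each group held 1 library, and for the same reason no library could be left out. Depth limits LOC_Os01g03360 in wild type, at 13 reads, and LOC_Os01g03380, at 0 reads.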
